A study of Mus musculus with 6 samples.

Results

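The transcripts of 10 Notch pathway genes were followed in mouse bone marrow-derived macrophages (BMDMs) exposed to LPS for 1 h. The genes were the receptors Notch1, Notch2 and Notch4, the ligands Jag1, Dll1 and Dll4, the nuclear proteins Rbpj and Maml1, and the target genes Hes1 and Hey1. They were taken from the deposited gene count table by symbol, through the Ensembl identifier and GENCODE M21, and all 10 were found among its 55335 rows. The study sequenced total RNA from 3 libraries of PBS-treated control cells and 3 libraries of LPS-treated cells, all collected at 1 h. The cells of all 6 libraries were wild-type (WT) C57BL/6 bone marrow cells cultured for 6 days with 10% FBS and 20% L929-conditioned medium, a source of macrophage growth factor, and both groups shared this culture. LPS is a component of the outer membrane of Gram-negative bacteria that macrophages sense through Toll-like receptor 4. The study worked with male mice of 7 to 10 weeks. The LPS dose and the number of mice behind these libraries are not given in the sources used here. Nothing states that the replicates came from separate animals or cultures, so the p-values measure the spread between these libraries, which may be technical.

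Notch receptors are transmembrane proteins that are activated by ligands on neighbouring cells. Ligand binding exposes the receptor to ADAM proteases and then to γ-secretase, which frees the intracellular domain. In the nucleus that domain joins the DNA-binding protein RBPJ and a Mastermind coactivator such as MAML1 to turn on target genes, among them the HES and HEY repressors. In macrophages the pathway is known to interact with Toll-like receptor signalling.

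The 6 libraries held 37787611 to 41516330 counts, and 3 counts corresponded to 0.0630 to 0.0919 normalized CPM (CPM, counts relative to the library total after TMM scaling). The comparison asked how each gene differed between LPS and PBS libraries. It was made with edgeR's quasi-likelihood test, with p-values adjusted by the Benjamini-Hochberg method over the 15687 genes that passed the filter on low counts. The TMM factors were 1.15 for each PBS library and between 0.864 and 0.872 for the LPS libraries, and where libraries were scaled by their totals without them, log2 fold changes fell by 0.40 at the median. This is called library size alone in what follows. A gene whose log2 fold change lay between 0 and about 0.40 therefore changed sign with that scaling. The check of the stimulus was Tnf, an early cytokine gene, which had a log2 fold change of 6.83 (adjusted p = 4.99e-24, edgeR quasi-likelihood test).

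Of the 8 Notch genes that could be tested, 5 rose (Notch1, Notch2, Jag1, Rbpj and Maml1) and 1 fell (Notch4), and with library size alone Notch2 and Maml1 no longer rose. Among all tested genes, 32.9% rose and 34.9% fell, and with library size alone 2354 of the 15687 genes rose and 65.9% fell. Notch1 and Jag1 also passed a log2 fold change of 1, as did 10.5% of all tested genes, and 10.4% of all tested genes fell past -1. Notch1 passed by little, at 1.02, and was under 1 with library size alone (0.61), with upper quartile scaling (0.88), with the filter of 1 count in any library (0.99) and without PBS library 3 (0.98), its adjusted p staying under 0.05 in each. Of the genes past both criteria 50.4% rose, against 29.0% with library size alone. For the 8 Notch genes the median of the log2 fold changes was 0.39, close to the shift of 0.40 between scalings, and for all tested genes it was -0.013. With library size alone both medians were lower, at -0.0096 for the 8 Notch genes and -0.417 for all tested genes. Dll1 and Hes1 were too low for the filter.

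The promoter windows lie around annotated start sites of transcription, which were not measured in these libraries. RefSeq windows on GRCm38.p6, from 250 bases before to 50 after a start site, matched 8 of the 10 genes, with 10 windows in all. Hes1 and Hey1 did not match. The part of the window outside annotated exons is printed for Jag1, the gene with the largest rise, for Notch1, the receptor with the largest rise, and for Notch2, the most abundant receptor. All are written 5′ to 3′ on the strand of the gene, in lower case, and capitals mark the match to the consensus of NF-κB, a factor activated by LPS.
Jag1 (chr2:137116645-137116770, minus strand): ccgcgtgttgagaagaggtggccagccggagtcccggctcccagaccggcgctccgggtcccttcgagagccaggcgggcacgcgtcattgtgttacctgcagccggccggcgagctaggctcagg
Notch1 (chr2:26503825-26504072, minus strand): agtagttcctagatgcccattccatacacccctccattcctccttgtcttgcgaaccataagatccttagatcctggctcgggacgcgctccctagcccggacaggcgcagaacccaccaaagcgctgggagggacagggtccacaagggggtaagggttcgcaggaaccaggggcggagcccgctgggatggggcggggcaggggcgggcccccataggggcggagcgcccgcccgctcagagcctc
Notch2 (chr3:98013288-98013526, plus strand): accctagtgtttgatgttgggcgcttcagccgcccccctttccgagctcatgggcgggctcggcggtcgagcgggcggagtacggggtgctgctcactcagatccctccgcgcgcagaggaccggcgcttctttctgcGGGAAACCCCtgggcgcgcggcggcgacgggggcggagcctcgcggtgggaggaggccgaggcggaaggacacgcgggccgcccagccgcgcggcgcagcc
Each window was searched on both strands for the RBPJ core TGGGAA, for the AP-1 site TGANTCA and for the NF-κB consensus. The NF-κB match in Notch2 was GGGAAACCCC, as read on the strand of the gene, at position -112 from the RefSeq start, and 1 of the 8 genes held one, against 4.5% of all 32817 windows in the table. AP-1 matches lay in Notch4 (TGACTCA, at -4) and Dll1 (TGATTCA, at -109), and such a match was in 7.81% of all windows. The RBPJ core was in the windows of Rbpj itself and in 25.6% of all windows. The windows of Jag1, Notch1, Maml1 and Dll4 held no match to these letters. Start sites outside the windows were not searched. A match describes letters in the window and shows no binding.

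Notch2 was the most abundant of the receptors, and Notch1 rose about 2-fold. Notch1 (ENSMUSG00000026923.15, chr2:26457903-26516663, minus strand) had 4892, 4856 and 4511 counts in PBS libraries 1 to 3, and 7020, 6962 and 6871 counts in LPS libraries 1 to 3. All 3 LPS libraries were above all 3 PBS libraries. In normalized CPM the level went from 103 ± 4.86 to 208 ± 5.78 (SD, n = 3 in each group). The log2 fold change was 1.02 (SE 0.04, adjusted p = 5.69e-14, edgeR quasi-likelihood test), and over the alternatives it ranged from 0.61 with library size alone to 1.05.

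Notch2 (ENSMUSG00000027878.11, chr3:98013527-98150361, plus strand) is a receptor known for its part in the development of dendritic cells and marginal zone B cells. It had 33278, 32017 and 31028 counts in the PBS libraries and 29955, 30714 and 30526 in the LPS libraries, so the raw counts were lower with LPS and the normalized levels were higher. The normalized level was 693 ± 18.7 CPM in PBS and 910 ± 26.8 CPM in LPS libraries (SD, n = 3), a log2 fold change of 0.39 (SE 0.04, adjusted p = 1.83e-08, edgeR quasi-likelihood test). The log2 fold change was 0.41 with DESeq2 size factors and 0.25 with upper quartile scaling. With library size alone it was -0.012 (adjusted p = 0.745), so the direction for Notch2 rests on the scaling.

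Notch4 (ENSMUSG00000015468.14, chr17:34564268-34588503, plus strand) is a receptor best known from endothelium, and its gene lies 637739 bp from the start of Tnf. Its counts were 55, 35 and 31 in PBS and 13, 21 and 15 in LPS libraries. The lowest PBS library was above the highest LPS library, and PBS library 1 stood above the other two. The level was 0.867 ± 0.255 CPM in PBS and 0.491 ± 0.135 CPM in LPS libraries (SD, n = 3), a log2 fold change of -0.83 (SE 0.29, adjusted p = 0.0177, edgeR quasi-likelihood test). The call was lost with DESeq2 (adjusted p = 0.0568), without PBS library 1 (-0.56, adjusted p = 0.116), without LPS library 1 (-0.68, adjusted p = 0.0802) and without LPS library 3 (-0.76, adjusted p = 0.0592), and the direction was kept in each. In bulk RNA, fewer cells of a type and less RNA per cell cannot be told apart, for this gene and for those that follow.

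Among the ligands, Jag1 rose by far the most. Jag1 (ENSMUSG00000027276.7, chr2:137081456-137116644, minus strand) encodes Jagged1, a transmembrane ligand of the Serrate family. It had 575, 519 and 505 counts in the PBS libraries and 12904, 13070 and 13063 counts in the LPS libraries. The groups were far apart, and the spread within each was small. The normalized level went from 11.5 ± 0.566 to 390 ± 9.40 CPM (SD, n = 3), a 33.8-fold rise with a log2 fold change of 5.08 (95% confidence interval 4.99 to 5.17, adjusted p = 2.63e-23, edgeR quasi-likelihood test). Over the alternatives it ranged from 4.68 with library size alone to 5.12. By log2 fold change Jag1 was 185th from the top of the 15687 tested genes.

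The Delta-like ligands Dll1 and Dll4 stayed at a few counts per library. Dll1 (ENSMUSG00000014773.13, chr17:15367354-15376872, minus strand) had 19, 10 and 9 counts in PBS and 6, 7 and 8 in LPS libraries. Scaled to the effective library sizes the groups overlapped, and the ratio of LPS to PBS was 0.766 (95% exact interval 0.427 to 1.34, counting error only). Dll1 shares 20.5% of its exonic bases with A930024N18Rik on the other strand, so its few counts are uncertain as to gene. Dll4 (ENSMUSG00000027314.6, chr2:119325784-119335962, plus strand) had 17, 15 and 8 counts in PBS and 8, 16 and 14 in LPS libraries. These also overlapped, and the log2 fold change of 0.39 had a confidence interval of -0.40 to 1.19 (adjusted p = 0.367, edgeR quasi-likelihood test). A difference in either Delta-like ligand was not detectable at this depth.

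**Figure D1:**
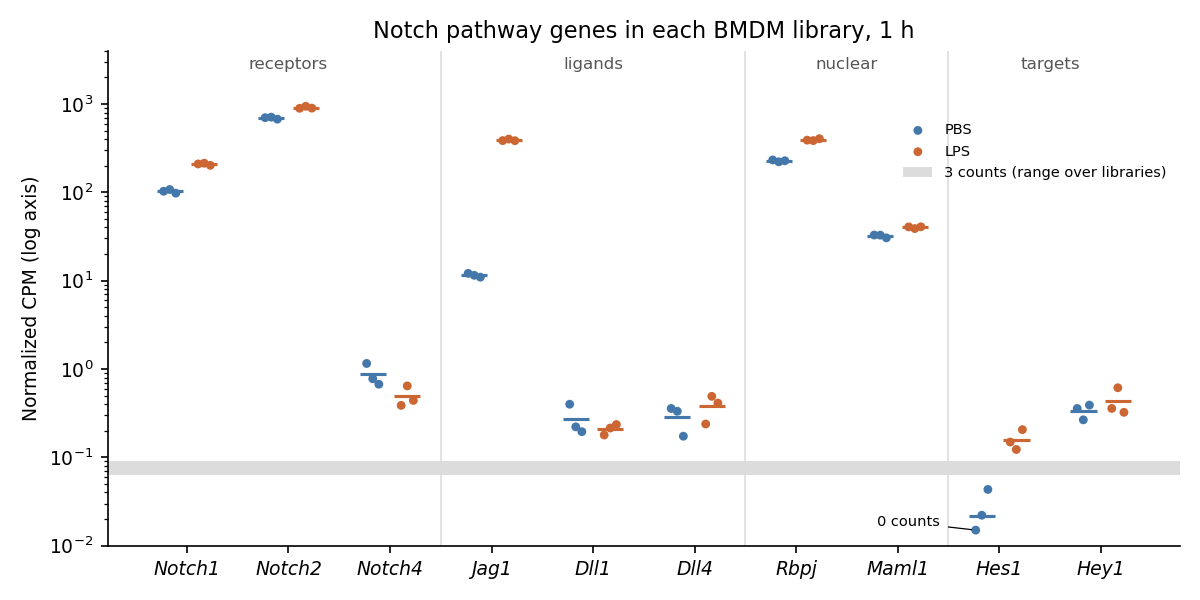
Normalized CPM on a log axis for each of the 10 genes, grouped by role, with 1 point per library (PBS blue, LPS orange), a line at the mean of each group and a grey band at the level of 3 counts. Jag1 moved from 11.5 to 390 CPM, while Notch4, Dll1, Dll4, Hes1 and Hey1 lay near or below 1 CPM, and the Hes1 library with 0 counts is drawn near the bottom of the axis.

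The DNA-binding protein and its coactivator were expressed in every library. Rbpj (ENSMUSG00000039191.12, chr5:53466152-53657362, plus strand) had 11063, 10003 and 10493 counts in PBS and 13059, 12560 and 13743 in LPS libraries. The lowest LPS library was above the highest PBS library, also before scaling. Its level was 227 ± 5.47 CPM in PBS and 393 ± 9.95 CPM in LPS libraries (SD, n = 3), a log2 fold change of 0.79 (SE 0.03, adjusted p = 3.91e-13, edgeR quasi-likelihood test), and with library size alone it was 0.39. The processed copy Rbpj-ps3 had 133 to 176 counts in PBS and 167 to 201 in LPS libraries, and how reads that fit both were counted is not given in the sources used here.

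Maml1 (ENSMUSG00000050567.16, chr11:50255634-50292311, minus strand), the Mastermind coactivator, had 1562, 1478 and 1407 counts in PBS and 1362, 1268 and 1384 in LPS libraries. As for Notch2, raw counts were lower with LPS and normalized levels higher. The level was 32.0 ± 1.31 CPM in PBS and 40.0 ± 1.03 CPM in LPS libraries (SD, n = 3), a log2 fold change of 0.32 (SE 0.05, adjusted p = 6.21e-06, edgeR quasi-likelihood test). With library size alone it was -0.082 (adjusted p = 0.112).

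The classical target genes Hes1 and Hey1, both transcriptional repressors, were close to the floor of the data. Hes1 (ENSMUSG00000022528.8, chr16:30064384-30067796, plus strand) had 0, 1 and 2 counts in PBS and 5, 4 and 7 counts in LPS libraries. Every LPS library was above every PBS library, and the ratio of the summed counts, 16 against 3, was 7.39 after scaling (95% exact interval 2.12 to 39.6, counting error only). Hes1 failed the filter of the test, and where every gene with a count in any library was tested its adjusted p was 0.00757 (edgeR quasi-likelihood test). That fit gave far smaller adjusted p-values for abundant genes too. For Notch1 it was 1.36e-157, against 5.69e-14 in the main fit (same test). The value for Hes1 is therefore not comparable with those of the main fit. Hey1 (ENSMUSG00000040289.8, chr3:8663359-8667256, minus strand) had 17, 12 and 18 counts in PBS and 12, 20 and 11 in LPS libraries. The groups overlapped, with a log2 fold change of 0.34 (confidence interval -0.37 to 1.05, adjusted p = 0.385, edgeR quasi-likelihood test).

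**Figure D2:**
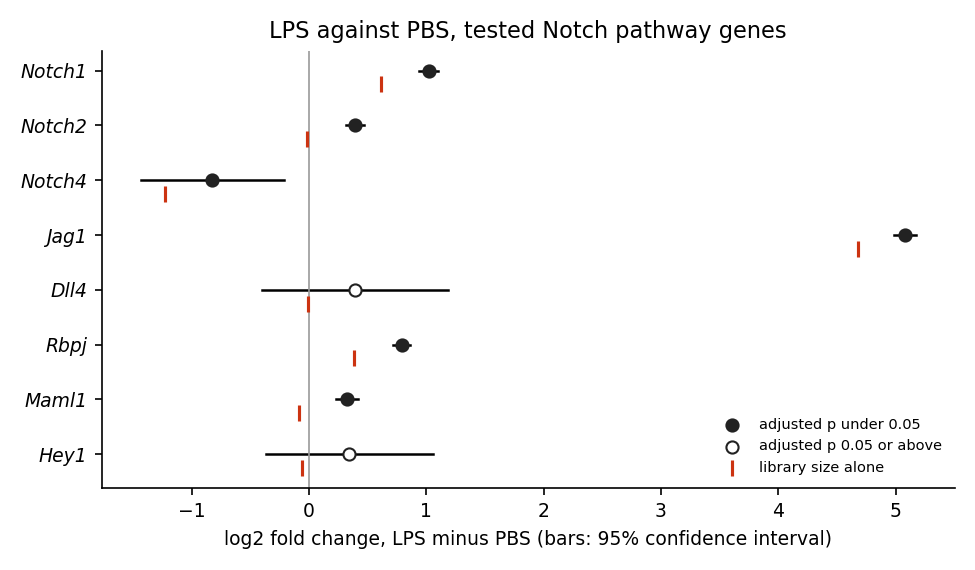
Log2 fold change of LPS minus PBS for the 8 tested genes (points, with 95% confidence intervals; filled where the adjusted p was under 0.05), with the value under scaling by library size alone as a red tick. Jag1 stands at 5.08 and Notch1 at 1.02 on the TMM scale, and the ticks of Notch2, Maml1, Dll4 and Hey1 lie just below 0.

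Levels between genes were compared as normalized CPM per kb of exon. In PBS libraries the order was Notch2 (64.3 ± 1.74), Rbpj (17.8 ± 0.429), Notch1 (7.21 ± 0.341), Maml1 (5.79 ± 0.237) and Jag1 (1.97 ± 0.0971), each apart from the next over the 3 libraries. Notch4, Hey1, Dll4 and Dll1 followed at 0.0644 to 0.108 per kb, and neighbours among them overlapped. Hes1 was lowest at 0.0107 ± 0.0106 per kb.

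In LPS libraries Jag1 took the second place. The order per kb was Notch2 (84.4 ± 2.48), Jag1 (66.9 ± 1.61), Rbpj (30.8 ± 0.781), Notch1 (14.6 ± 0.406) and Maml1 (7.24 ± 0.186), again each apart from the next. With the length of the longest transcript in place of all exonic bases, Rbpj (71.6 per kb) and Jag1 (69.4 per kb) overlapped. The other genes lay at 0.0496 to 0.132 per kb, and neighbours among them overlapped.

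Shares within a library do not depend on its scaling. Notch1 made up 10.0%, 10.3% and 9.91% of the summed receptor level per kb in PBS libraries 1 to 3, and 15.1%, 14.6% and 14.6% in LPS libraries 1 to 3. The mean share was 10.1% ± 0.200 in PBS and 14.8% ± 0.274 in LPS libraries (SD, n = 3, two-sided exact permutation p = 0.1, the smallest that 3 against 3 allows). All LPS libraries had the larger share. The larger rise of Notch1 than of Notch2 fixed this direction, so the test adds nothing to the results of the single genes. Notch2 made up 89.8% ± 0.203 in PBS and 85.2% ± 0.259 in LPS libraries (SD, n = 3), and Notch3 and Notch4 together with their few counts filled the rest.

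Jag1 made up 86.7%, 84.3% and 85.9% of the summed level of Jag1, Jag2, Dll1, Dll3 and Dll4 per kb in the PBS libraries, and 97.8% in each of the LPS libraries. The shares did not overlap (85.6% ± 1.24 and 97.8% ± 0.0214, SD, n = 3, two-sided exact permutation p = 0.1). The larger rise of Jag1 than of the other ligands fixed this direction too, so the test adds nothing to the Jag1 result. The summed ligand level was 2.31 ± 0.105 per kb in PBS and 68.3 ± 1.65 per kb in LPS libraries, and the summed receptor level was 71.6 ± 2.09 and 99.1 ± 2.82 per kb (SD, n = 3). The level of Jag1 divided by that of Notch2 was 0.0320, 0.0300 and 0.0301 in PBS and 0.797, 0.787 and 0.792 in LPS libraries. This ratio was higher in every LPS library (two-sided exact permutation p = 0.1). It was not planned and was added after the data were seen. The large rise of Jag1 fixed its direction, so its test adds nothing to the Jag1 result. Without division by length the mean ratio was 0.0166 in PBS and 0.428 in LPS libraries.

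**Figure D3:**
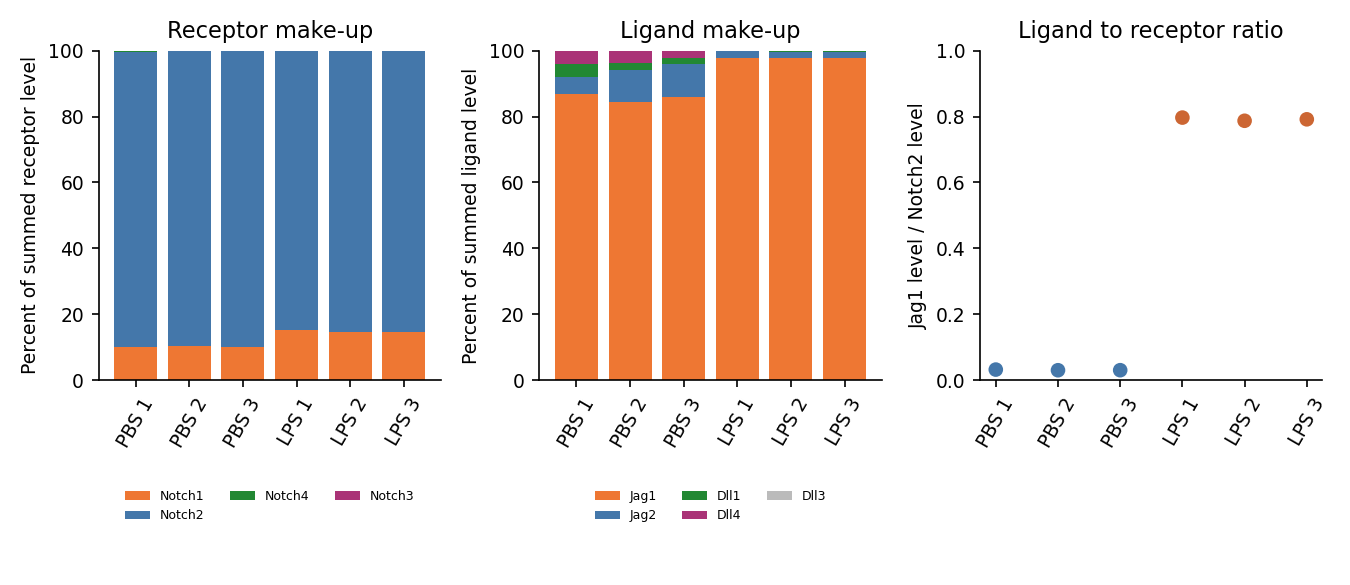
Per library, the percent of the summed receptor level (left) and of the summed ligand level (middle) held by each gene, from levels per kb, and the Jag1 level divided by the Notch2 level (right). The Notch1 share was 10.1% in PBS and 14.8% in LPS libraries on average, the Jag1 share 85.6% and 97.8%, and the ratio 0.0307 and 0.792.

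A further 63 genes of the pathway were listed by role, and 50 of them could be tested. Of these 25 rose, 16 fell and 9 did not pass, with a median log2 fold change of 0.14, whereas with library size alone 8 rose and 34 fell, shares near those of all tested genes under that scaling, of which 2354 of 15687 rose and 65.9% fell. Under TMM scaling 32.9% of all tested genes rose and 34.9% fell, and 10.5% rose and 10.4% fell past the fold criterion. The counts that follow for each role are to be read against the shares of all tested genes under the same scaling. Past a log2 fold change of 1 in size were 3 that rose (Jag2, Furin and Neurl3) and 2 that fell (Neurl1b and Hes6). The direction of these 5 was the same under library size alone, but Furin (0.75) and Neurl3 (0.70) were then under 1 and Lfng (-1.05), Numbl (-1.12) and Cir1 (-1.25) past -1, so that 1 rose and 5 fell past the fold criterion, among 7.73% and 18.9% of all tested genes.

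Jag2, the other Jagged ligand, had 43, 72 and 70 counts in PBS and 316, 300 and 313 in LPS libraries. It rose 6.94-fold with a log2 fold change of 2.79 (SE 0.14, adjusted p = 3.51e-12, edgeR quasi-likelihood test), and its level of 1.33 per kb in LPS libraries was far below that of Jag1. The remaining ligands Dll3, Dlk1 and Dlk2 had at most 3 counts in any library. The receptor Notch3 had 11, 8 and 4 counts in PBS and 3, 8 and 6 in LPS libraries and was not tested.

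The proteolysis list holds the enzymes that cut the receptor and its ligands. Of its 10 genes 8 rose and 1 fell, and with library size alone 3 rose and 7 fell. Furin, the convertase that cleaves the receptor precursor, had 5070, 5024 and 4443 counts in PBS and 7930, 7937 and 7512 in LPS libraries, a log2 fold change of 1.16 (adjusted p = 2.33e-13, edgeR quasi-likelihood test). The examples that follow in this and the next paragraph, apart from those past the fold criterion, were chosen after their values were seen. Adam17, a sheddase, rose by 0.49 on the log2 scale, and by 0.089 with library size alone. Adam10, of the same list, rose by 0.26 with TMM scaling. The γ-secretase subunit genes Aph1b (0.58) and Aph1c (-0.54) differed in sign. They are near-identical copies, and how reads that fit both were counted is not given in the sources used here. Of the 5 genes that modify receptor sugars, 1 rose and 2 fell, and with library size alone 4 fell. Those that fell were the fringe glycosyltransferases Lfng (-0.64) and Mfng (-0.43).

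Of the 12 ubiquitin ligases and endocytic regulators tested, 6 rose and 5 fell, and with library size alone 2 rose and 8 fell. Neurl3, a Neuralized-family ubiquitin ligase, had 6778, 6867 and 6737 counts in PBS and 10529, 10448 and 10657 in LPS libraries, a log2 fold change of 1.10 (adjusted p = 2.78e-15, edgeR quasi-likelihood test). Neurl1b, of the same family, had 189, 194 and 188 counts in PBS and 65, 47 and 37 in LPS libraries, a log2 fold change of -1.47 (adjusted p = 1.86e-07, edgeR quasi-likelihood test). Neurl1a, also of this family, fell from 1.19 to 0.799 CPM, a log2 fold change of -0.57 (adjusted p = 0.0186, edgeR quasi-likelihood test). Related genes thus moved in opposite directions. Of the 7 coactivators 4 rose and 3 fell, and with library size alone 3 fell. Of the 14 corepressors tested 5 rose and 4 fell, and with library size alone 2 rose and 11 fell. Examples were Tle3 (0.69), a Groucho-type corepressor, and Cir1 (-0.84), an RBPJ-interacting corepressor.

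Of the 8 further HES, HEY and feedback genes, Hes6 was the one that could be tested, and Hes2, Hes3, Hes5, Hey2 and Heyl had at most 3 counts in any library. Hes6, which is known as an inhibitor of HES1 activity, had 747, 750 and 767 counts in PBS and 229, 248 and 240 in LPS libraries. It fell, with a log2 fold change of -1.19 (adjusted p = 6.65e-11, edgeR quasi-likelihood test). Its level per kb was 3.96 in LPS libraries.

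**Figure D4:**
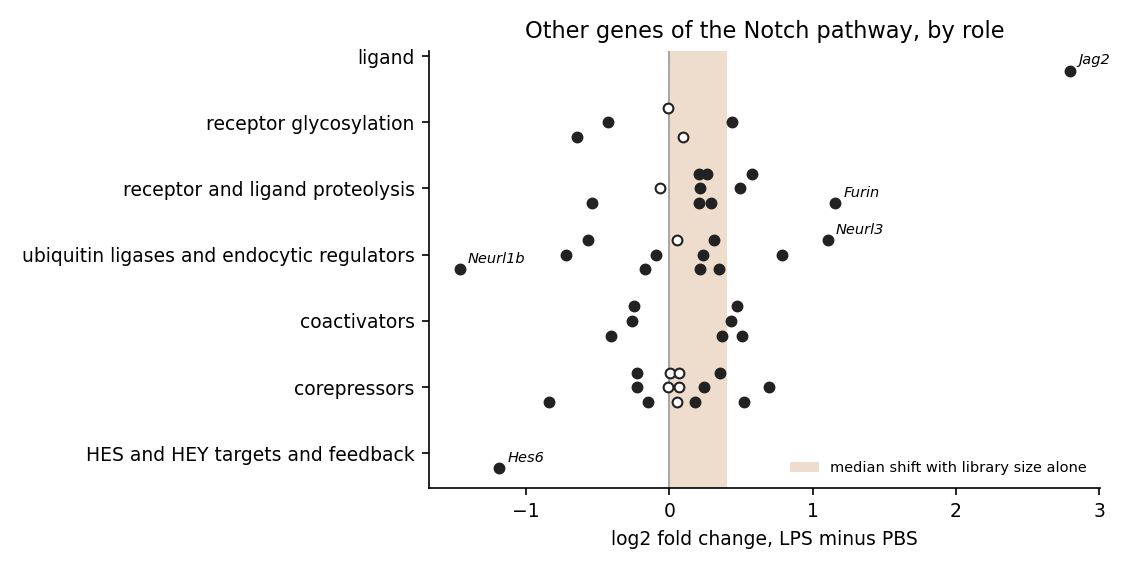
Log2 fold change of LPS minus PBS for the 50 tested further genes of the pathway, by role, filled where the adjusted p was under 0.05, with the genes past a log2 fold change of 1 in size named. The shaded band spans the median shift of 0.40 that scaling by library size alone produced, so the log2 fold changes of points inside it lie near or below 0 under that scaling.

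Some annotated genes overlap the Notch genes, and the strand setting of the counting is not given in the sources used here. The record Gm42819 lies on the same strand within Notch2 and shares no exonic base with it. It had 629, 570 and 637 counts in PBS and 1251, 1160 and 1213 in LPS libraries, a log2 fold change of 1.45 (adjusted p = 3.67e-14, edgeR quasi-likelihood test), against 0.39 for Notch2. Per 100 Notch2 counts there were 1.91 ± 0.137 counts of Gm42819 in PBS and 3.98 ± 0.200 in LPS libraries (SD, n = 3, two-sided exact permutation p = 0.1). It was singled out after its values were seen. Genes on the other strand overlap 7.5% and 2.91% of the exonic bases of Notch1, 5.56% of those of Dll4 and 2.44% of those of Maml1, and Gm42820 on the same strand overlaps 5.02% of those of Notch2.

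The labelled cell type was checked against 9 macrophage markers, all of which were tested (7 rose and 1 fell with TMM scaling, at a median log2 fold change of 0.20 that lies within the shift between scalings), with a summed level of 30143 to 31432 CPM in PBS and 36099.6 to 36462 CPM in LPS libraries. Lyz2 held most of that sum. With TMM scaling 32.9% of all tested genes rose and 34.9% fell. The endothelial list, from a cell type that uses several of these Notch genes, had 5 of 8 markers tested, of which 3 rose with TMM scaling. It summed to 152 to 159 CPM in PBS and 203 to 211 CPM in LPS libraries. Nearly all of this was Vwf and Kdr, at 119 and 34.7 CPM in PBS libraries. Cdh5 was at 0.734 CPM in PBS and 2.63 CPM in LPS libraries, a log2 fold change of 1.84 (adjusted p = 5.04e-08, edgeR quasi-likelihood test). Tek, Emcn, Esam, Cldn5 and Tie1 were lower than Cdh5 in each group. The dendritic cell list had 5 of 5 tested, of which 4 rose, and summed to 4.07 to 5.01 CPM in PBS and 11.1 to 11.7 CPM in LPS libraries. Their part in the changes of the Notch genes was not tested. Stromal, T cell, B cell and neutrophil lists summed to at most 31.1 CPM in any library, and of all 7 lists the neutrophil marker Ly6g alone had at most 3 counts in each. Nearly all of the T cell sum was Cd4.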

How the data were processed

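Total RNA of BMDMs was sequenced in 6 libraries, with groups and replicates assigned from the labels. The authors aligned reads to GRCm38 with HISAT2 2.1.0, used SAMtools 1.17 and FastQC 0.11.9, and ran featureCounts 2.0.0 for read counts of each gene, which they deposited as raw counts. The annotation release, strand setting and treatment of multi-mapping reads are not given in the sources used here. The genes and gene lists were chosen with earlier results of these data known.

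Differences were computed from the counts in R 4.3.3 with edgeR 4.0.16 (default filterByExpr, TMM scaling, quasi-likelihood test, Benjamini-Hochberg adjustment over 15687 genes, threshold 0.05). CPM were scaled by effective library sizes, and levels per kb used the union of GENCODE M21 exons. Shares and ratios were compared by two-sided exact permutation tests. The exact intervals of count ratios and the floors of 3 counts cover counting error only. Confidence intervals of log2 fold changes come from the quasi-likelihood fit and include the spread between libraries. Library totals were 37787611 to 41516330. Besides the 10 Notch genes, the rule named further pathway genes past a log2 fold change of 1 in size. Alternatives were other scalings, filters, DESeq2 1.42.0, limma voom (limma 3.58.1), a prior count of 2, leaving out the 10 highest genes, each library left out, other gene lengths, and the batch number as a block. The titles number the replicates of each group, and this replicate number was used as the batch number, which pairs same-numbered libraries. The titles do not state that such libraries shared a batch. The correlations of their deviations were -0.025, 0.20 and 0.074, and those of differently numbered libraries ranged from -0.20 to 0.13. The main fit had no block. On simulated counts for 15231 genes, edgeR recovered 200 of 200 changed genes, DESeq2 199 and limma voom 200. The planted changes lay past the fold criterion, in genes away from the floor, with as many rises as falls. Smaller changes, genes at a few counts and the shift between scalings were thus not covered.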

Additional observations from a re-analysis of the deposited data

How the results depend on the processing

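Of 127 values of the Notch genes under alternatives, 119 kept their direction and side of the threshold. The 4 that lost their call were all of Notch4, given with its values. The 4 that reversed came from scaling by library size alone, which gave log2 fold changes of -0.012 for Notch2, -0.0068 for Dll4, -0.082 for Maml1 and -0.060 for Hey1, each not past the threshold. That scaling also left 3 Notch genes that rose in place of 5, gave 2964 genes that fell past both criteria in place of 1624, and made the rising share 29.0% in place of 50.4%. Of the 50 tested further genes 8 rose under it in place of 25, and of the 7 coactivators 0 rose in place of 4. Some further genes were followed singly through the alternatives, which was added after seeing the data. Among those, that scaling took the call from the coactivators Maml3 (0.10) and Crebbp (0.066). The ratio of Jag1 to Notch2 and every alternative for it were also added then. A filter of 10 counts in every library, which tests fewer genes, gave 2168 genes past both criteria in place of 3277, of which 1027 fell, and could not test Dll4. With DESeq2 0 Notch genes fell at an adjusted p under 0.05, against 1 at an unadjusted p under 0.05 and 1 with edgeR and limma voom. The number that fell ranged from 0 to 1 over the fits that each omitted 1 library. With the replicate block, which pairs libraries by batch number, 5 Notch genes rose and 1 fell, as without it, and no other call on them changed. The paired differences in shares cannot reach a sign-flip p below 0.25. The lengths used shift the rise of the Notch1 share, from 4.69 percentage points to 6.13 with the longest transcript, and at a few counts per library Dll1, Dll4, Hes1 and Hey1 are limited by depth.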
